A study of Mus musculus with 15 samples.

Results

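The hearts of male C57BL/6 mice came from a pair of separate 5-month trials of the same treatment, and the comparison here was between the 4 male hearts of trial 2 and the 4 male hearts of trial 1. These were 8 of the 15 hearts of the series, chosen by sex and by the trial in the array titles, with no measured value used in the choice. Each trial gave 2 hearts of mice injected weekly into the abdomen with methamphetamine hydrochloride (meth), raised to 40 mg/kg by week 20, and 2 hearts of mice injected with phosphate-buffered saline (PBS) on the same schedule. All mice were 8 to 10 weeks old at the start, all were males of the same strain, and the hearts were frozen after 5 months. Total RNA of each heart was labelled with Cy3 dye and hybridised to its own Agilent 4x44K mouse array, so each array was 1 mouse. The trial 1 males lay on slides 1 and 2, which were scanned in the same session, and the trial 2 males all lay on slide 3, which was scanned in another. Trial, slide and scan session therefore cannot be told apart among the males, and every difference below is one between sets of arrays as much as between cohorts of mice. The hour at which the mice were killed is not given in the sources used here.

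The heart keeps its own circadian clock. The activators Arntl (Bmal1) and Clock bind E-box sequences and switch on the Per and Cry repressors, the REV-ERB receptors Nr1d1 and Nr1d2, and the output factors Dbp, Tef and Hlf, and REV-ERB in turn holds down Arntl, Nfil3 and Cry1. Genes of the activator phase and those of the output phase thus peak at different times of day. Heart muscle burns mostly fatty acid through beta-oxidation and the respiratory chain, and a dissected heart can carry pericardial fat, blood and immune cells along with its muscle.

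Values are log2 signal of a probe relative to the 75th percentile of its own array, so a value of 0 is the level that 75% of probes lie below, and a log2 difference is trial 2 minus trial 1 from a limma fit with treatment as a covariate, given with its standard error. A gene was called where its p-value, after Benjamini-Hochberg adjustment across every tested probe, was under 0.05. The 4 arrays of trial 1 had 61.3% to 64.7% of probes well above background and those of trial 2 had 62.5% to 63.7%, the flag that the scanner software sets. At the 75th percentile, probes had a signal of 319 to 348 in trial 1 and 311 to 403 in trial 2. The mean log2 signal of the 10 spike-in sequences, RNA added to each sample at known amounts, was 9.83 to 9.91 in trial 1 and 10.03 to 10.23 in trial 2, with no overlap (two-sided exact permutation test, p = 0.0286, the smallest that 70 regroupings allow). After the shift by the 75th percentile the spike-ins overlapped (exact permutation p = 0.400). The 12 cardiomyocyte markers were all measured, with a mean level of 8.02 to 8.27 over the 8 arrays.

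Trial 2 hearts differed from trial 1 hearts at many transcripts and by small amounts. Of 26105 probes tested 4045 were called (15.5%), 2188 of them higher in trial 2 (8.38%) and 1857 lower (7.11%). Among named genes, each read by its brightest probe, 1992 of 13392 were called (14.9%), 781 higher (5.83%) and 1211 lower (9.04%). The median size of the log2 difference was 0.31 over the called genes, and 72 of them differed by over 1. The split by direction depended on the scaling: with each array shifted by its median instead, 1528 of the called probes were higher and 3895 lower. The first principal component, with 41.8% of the variance, separated meth from PBS arrays, and the second, with 26.3%, put all 4 trial 1 arrays on one side and all 4 trial 2 arrays on the other. Between slides 1 and 2, within trial 1 and with female arrays of the same slides included, limma called 0 of 25980 probes (0%), with 710 below 0.05 before adjustment (2.73%). The same unadjusted share between the male trials was 35%, in a fit of males only. These shares come from unlike fits, and slides 1 and 2 shared a scan session. They therefore do not measure a slide effect between sessions.

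The call counts rested on few arrays. Without any array other than male meth trial 2 replicate 2 the count fell under 4045 by more than 1.5 times, to between 1091 and 2507. In a fit of all 15 arrays 1623 probes were called, and 31 were called by the paired test named in the study's methods. In PBS hearts alone 918 probes (3.52%) and 409 genes (3.05%) were called, and in meth hearts alone 278 probes (1.06%) and 111 genes (0.829%), each from 2 arrays against 2. All 1992 called genes had the same sign in both treatments, against 68.6% of all genes tested, a count that the pooled fit itself favours. The 4 arrays of one trial did not overlap those of the other at 2962 genes (22.1%), 1131 of them higher in trial 2 (8.45%) and 1831 lower (13.7%).

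The clock genes differed between the trials mainly in PBS hearts. In PBS hearts of trial 2, 8 of the 14 repressor and output genes were lower than in trial 1 and none higher, beside 1.37% of genes called lower and 1.68% called higher in that contrast, and 3 of the 6 activator-phase genes were higher and none lower. The median log2 difference was -0.59 for repressors and outputs and 0.56 for the activator phase, beside -0.03 for all genes. In meth hearts the same medians were 0.03 and 0.04, with 2 repressor or output genes called, 1 in each direction, and 1 activator-phase gene called lower (0.343% of genes were called higher and 0.485% lower in that contrast). Each arm rests on 2 hearts, and counts in PBS hearts fell to between 1 and 202 probes when an array was left out.

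Dbp, an output transcription factor of the PAR bZIP family, read 5.46 and 5.34 in trial 1 PBS hearts and 3.61 and 3.57 in trial 2 PBS hearts. In meth hearts it read 6.16 and 6.16 in trial 1 and 5.91 and 6.02 in trial 2. The PBS hearts of trial 2 thus stood apart from all the others, and the trial difference was -1.81 ± 0.08 in PBS hearts (limma adjusted p = 0.00290) and -0.19 ± 0.08 in meth hearts (adjusted p = 0.182). Ciart (Chrono), a repressor that binds the Arntl protein, read -2.39 and -2.18 in trial 1 PBS hearts and -5.42 and -5.17 in trial 2 PBS hearts, where neither array was well above background. Its level in PBS hearts was therefore at least 6.71-fold lower in trial 2, with a fitted difference of -3.01 ± 0.11 (limma adjusted p = 0.00271). In meth hearts it read -0.38 and -0.42 in trial 1 and -0.86 and -0.79 in trial 2, and its difference of -0.42 ± 0.11 missed the threshold (adjusted p = 0.101).

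Ciart and Dbp were also the only probes called for a trial difference that itself differed between meth and PBS hearts, 2 of 26105 (0.00766%), while 2500 were below 0.05 before adjustment (9.58%). The difference of differences was 2.59 ± 0.16 for Ciart and 1.62 ± 0.11 for Dbp (limma adjusted p = 0.0490 for both). Both calls lay close to the threshold, and 0 probes were called in the fit of all 15 arrays, with the replicate number as a block or without the filter on dim probes. Leaving out male PBS trial 1 replicate 2 gave 60 calls and leaving out any other male array gave 0.

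**Figure D1:**
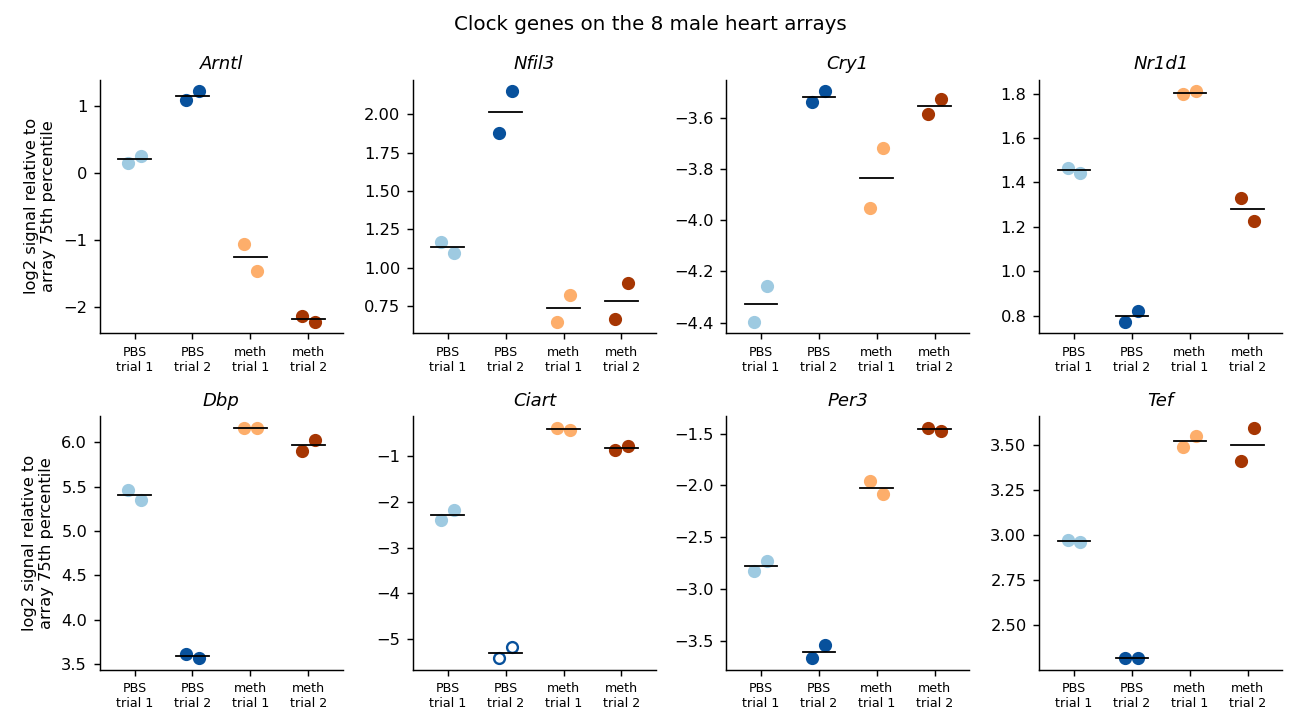
Log2 signal of 8 clock genes relative to the 75th percentile of each array (y axis, a separate range for each gene) in the 4 groups of 2 male hearts (x axis). Each point is 1 heart, the bar is the mean of 2, and open points were not well above background. The PBS hearts of trial 2 were lowest for Dbp, Ciart, Per3, Tef and Nr1d1 and highest for Arntl and Nfil3.

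Arntl and Per3 differed between the trials in opposite directions in the 2 treatments. Arntl read 0.15 and 0.25 in PBS hearts of trial 1 and 1.08 and 1.22 in those of trial 2, and -1.06 and -1.46 in meth hearts of trial 1 and -2.14 and -2.22 in those of trial 2. Trial 2 thus held both the highest and the lowest Arntl values, and the trial difference was 0.95 in PBS hearts (limma adjusted p = 0.0374) and -0.92 in meth hearts (adjusted p = 0.0487), with a pooled value of 0.02 ± 0.36. Per3 read -2.83 and -2.73 in trial 1 PBS hearts, -3.66 and -3.54 in trial 2 PBS hearts, -1.96 and -2.08 in trial 1 meth hearts and -1.45 and -1.48 in trial 2 meth hearts. It too spread to both ends in trial 2, by -0.83 in PBS hearts (adjusted p = 0.0268) and 0.56 in meth hearts (adjusted p = 0.0474). The calls of Arntl and Per3 in meth hearts were lost in every fit that left out an array, and those in PBS hearts in every fit that left out a PBS array.

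Among the other activator-phase genes, the repressor Nfil3 was higher in trial 2 PBS hearts by 0.88 and Cry1 by 0.81, whereas Clock differed by 0.30 and Rora by 0.11 without a call. Among outputs, Nr1d2 was lower by 0.89, Tef by 0.65, Bhlhe40 by 0.63 and Hlf by 0.56, all called in PBS hearts. Per2 differed by -0.52 in PBS hearts and 0.83 in meth hearts, with no call in either. Per1, Usp2, Cry2, Bhlhe41 and Wee1 were not called in PBS hearts either, at -0.38 to 0.09. Nr1d1 (REV-ERB alpha), the nuclear receptor that represses Arntl, was called in both treatments. It was 1.80 and 1.81 in meth and 1.46 and 1.44 in PBS hearts of trial 1, and 1.33 and 1.23 in meth and 0.77 and 0.82 in PBS hearts of trial 2, so that every trial 2 heart was below every trial 1 heart. Its pooled difference was -0.59 ± 0.05 (limma adjusted p = 0.00347), and all 3 of its probes were called lower. Cry1, with a pooled difference of 0.55 ± 0.12 (adjusted p = 0.0280), and Nr1d1 were the only clock genes called in the pooled fit, 2 of 20, a share no higher than the 14.9% over all genes.

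The bases before the start of Ciart and Per3 are shown because both are described above and carry known clock motifs there. The trial by treatment difference was called for Ciart but not for Per3 (1.39 ± 0.12, limma adjusted p = 0.0836). Each run is the 250 bases before an annotated start in RefSeq on GRCm38.p6, 5′ to 3′ on the gene's strand, for Ciart chr3:95882229-95882478 on the minus strand and for Per3 chr4:151044666-151044915 on the minus strand. Capitals mark E-box letters CACGTG in Ciart and D-box letters TTATGTAA in Per3.
Ciart: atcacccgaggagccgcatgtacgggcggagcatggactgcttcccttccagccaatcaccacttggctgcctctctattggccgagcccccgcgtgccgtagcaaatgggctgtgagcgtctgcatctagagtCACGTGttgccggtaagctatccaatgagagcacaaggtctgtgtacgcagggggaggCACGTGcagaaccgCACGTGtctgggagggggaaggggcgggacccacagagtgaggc
Per3: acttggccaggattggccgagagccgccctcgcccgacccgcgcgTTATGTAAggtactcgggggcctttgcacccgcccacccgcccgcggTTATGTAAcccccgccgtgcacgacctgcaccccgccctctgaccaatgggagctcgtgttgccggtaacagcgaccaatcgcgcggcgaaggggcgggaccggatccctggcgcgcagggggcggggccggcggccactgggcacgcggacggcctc
Ciart held 3 E-boxes, which begin 116, 58 and 44 bases before the start, and Per3 held 2 D-boxes, which begin 205 and 158 bases before it. Sequences for 16 of the 20 clock genes were found. Of these, 5 held CACGTG (Cry1, Per1, Tef, Bhlhe41 and Ciart), beside 6.02% of 32851 windows of the same length over all genes. A D-box, read as TTATGTAA on either strand or as TTACGTAA, was in 1 of the 16 and in 0.931% of all windows. The RORE letters TAGGTCA on either strand were in 1 of the 16 (Nfil3) and in 2.23% of all windows. Dbp and Arntl held none of these letters in this window.

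White fat genes all lay on the lower side in trial 2, with few calls. All 15 measured members lay below 0, with a median log2 difference of -0.85 beside -0.04 for all genes, and 2 were called lower, a share near the 9.04% of all genes called lower. The mean level of the list was 1.76 to 3.41 on the trial 1 arrays and 1.34 to 2.21 on the trial 2 arrays, so the trials overlapped, and male meth trial 1 replicate 2 was the highest array. In bulk tissue, fewer fat cells and less RNA per fat cell cannot be told apart. The part of adhering fat in any of the results was not tested.

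Adipoq, the adipokine adiponectin, read 2.36 and 3.70 in meth and 2.72 and 1.37 in PBS hearts of trial 1, and 2.26 and 1.24 in meth and 0.47 and 0.79 in PBS hearts of trial 2. The highest values were in trial 1 and the lowest in trial 2, but the ranges met, and the difference of -1.35 ± 0.41 did not pass (limma adjusted p = 0.0636). Plin1, which coats lipid droplets, differed by -1.38 ± 0.41 and also did not pass. The differences of the 2 called genes were smaller, and their trials did not overlap. Agpat2, an enzyme of triglyceride synthesis, was 2.01 to 2.63 in trial 1 and 1.43 to 1.77 in trial 2 (-0.65 ± 0.13, limma adjusted p = 0.0240). Pparg, the master regulator of fat cells, was 1.66 to 2.18 in trial 1 and 1.33 to 1.5 in trial 2 (-0.50 ± 0.11, adjusted p = 0.0288).

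**Figure D2:**
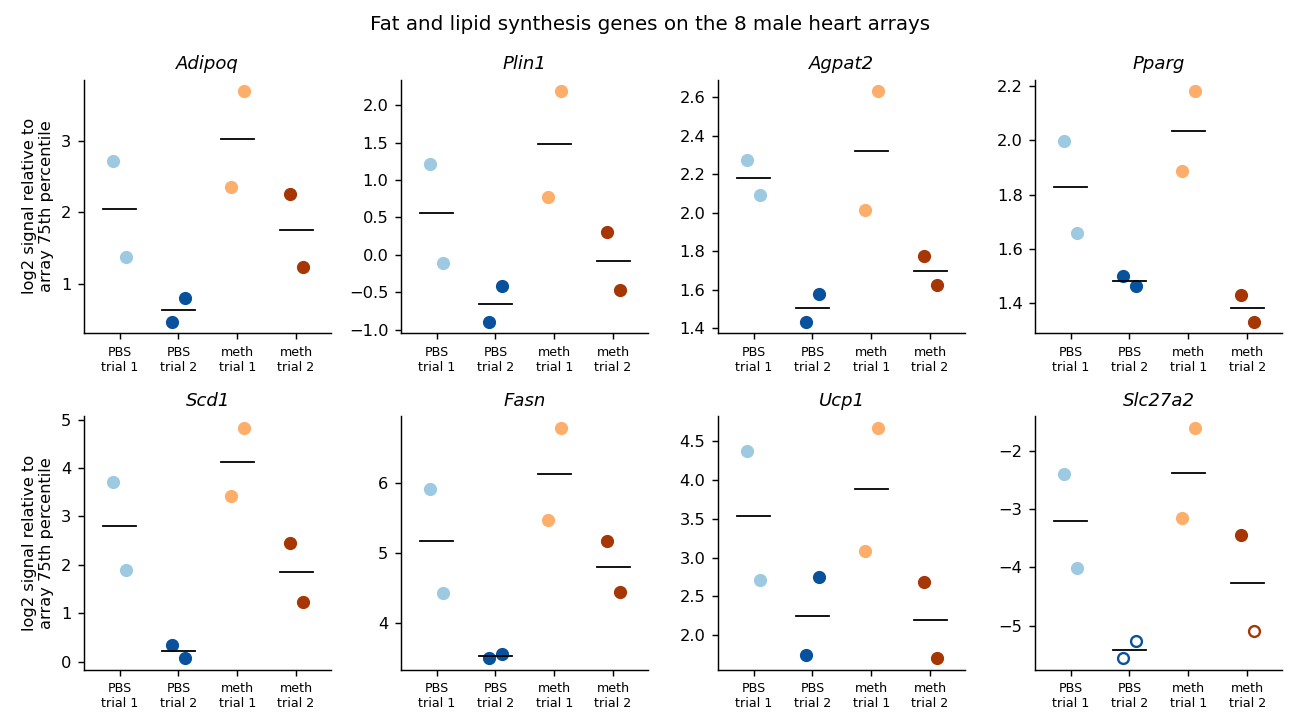
Log2 signal of 8 fat and lipid synthesis genes relative to the 75th percentile of each array (y axis, a separate range for each gene) in the 4 groups of 2 male hearts (x axis). Each point is 1 heart, the bar is the mean of 2, and open points were not well above background. Agpat2 and Pparg separated the trials, whereas Adipoq, Plin1, Scd1, Fasn and Ucp1 overlapped and were highest in male meth trial 1 replicate 2.

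Calls in lipid synthesis were mostly lower. Of 21 genes of cholesterol and fatty acid synthesis, 5 were called lower and 1 higher, beside 9.04% and 5.83% of all genes. Scd1, which makes monounsaturated fatty acids, read 3.41 and 4.83 in meth and 3.70 and 1.88 in PBS hearts of trial 1, and 2.46 and 1.23 in meth and 0.35 and 0.07 in PBS hearts of trial 2. It was lower by 2.43 ± 0.49 (limma adjusted p = 0.0237), although meth heart 1 of trial 2 lay above PBS heart 2 of trial 1. Fasn, fatty acid synthase, was lower by 1.48 ± 0.40 (adjusted p = 0.0476). The other called members belong to sterol synthesis and differed less, Cyp51 by -0.36 on 1 of its 3 probes, the others reaching 0.05, and Fdft1 by -0.28, with Me1 at -0.28. Here and in the lists below, genes beyond the 3 lowest p-values of a list in each direction were chosen after their values were seen.

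Brown fat genes gave no common direction, with 4 of 7 below 0 and 1 called. Slc27a2, a fatty acid transporter, was called lower at -2.05 ± 0.52 (limma adjusted p = 0.0415), with 1 of 4 trial 2 arrays well above background. Ucp1, the uncoupling protein that defines brown fat, was 2.71 to 4.67 in trial 1 and 1.70 to 2.75 in trial 2, and its difference of -1.49 ± 0.51 missed the threshold (adjusted p = 0.0846).

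Genes of energy use in heart muscle lay slightly below 0 as lists, and few were called (9.04% of all genes were called lower). For the respiratory chain and ATP synthase 29 of 31 genes were below 0, the median was -0.17, and 5 were called, all lower. That is near the share over all genes of similar brightness, of which 443 of 3486 with a mean level over 2 were called lower, with a median of -0.08. Cyc1, cytochrome c1 of complex III, was 7.70 to 7.88 in trial 1 and 7.30 to 7.60 in trial 2 (-0.28 ± 0.07, limma adjusted p = 0.0397). Ndufa1 of complex I was 8.03 to 8.23 and 7.71 to 8.02 (-0.24 ± 0.06, adjusted p = 0.0402), and Atp5c1 of the ATP synthase differed by -0.23 ± 0.06 with overlap between the trials. Cox5b at -0.27 and Sdhc at -0.28 were the other called members. The lowest array for most of these genes was male meth trial 2 replicate 1. The call of Atp5c1 was lost in 16 of 20 alternative fits, and those of Cyc1 and Ndufa1 were each lost in 14.

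For fatty acid uptake and beta-oxidation 20 of 21 genes were below 0, the median was -0.18, and only Eci1, an isomerase needed for unsaturated fatty acids, was called (-0.29 ± 0.06, limma adjusted p = 0.0255). Targets of the fasting regulator PPAR-alpha had 0 calls by limma, with Angptl4 the 1 gene at an unadjusted p under 0.05, and their median was 0.12 in PBS hearts, with 8 of 13 above 0, and -0.43 in meth hearts, with 13 of 13 below. Pdk4, which blocks glucose oxidation, read 4.58 and 5.13 in trial 1 and 3.29 and 4.02 in trial 2 meth hearts, and 4.71 and 4.74 in trial 1 and 5.11 and 5.30 in trial 2 PBS hearts. The trial by treatment difference of these genes was not called. Glucose uptake and glycolysis had 0 of 20 genes called by limma in the pooled fit, with the lowest unadjusted p for Gpi1 (0.0121), 3 genes under 0.05, and a median of -0.05.

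**Figure D3:**
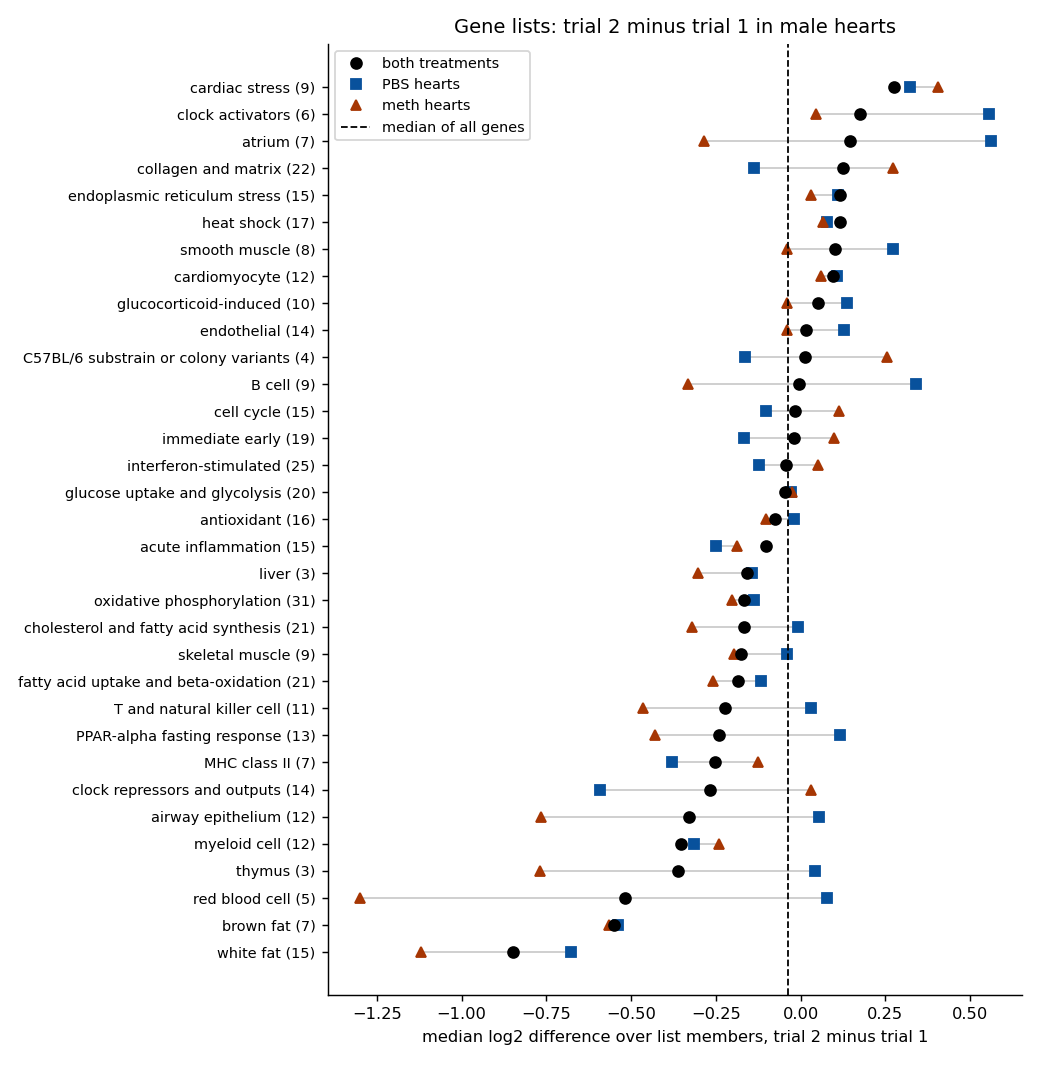
Median log2 difference, trial 2 minus trial 1, over the measured members of each gene list (x axis), with the number of measured members in parentheses (y axis). Circles are the fit with both treatments, squares PBS hearts, triangles meth hearts, and the dashed line is the median of all genes at -0.04. White fat was lowest in the pooled fit, and the clock lists were far from 0 in PBS hearts and near it in meth hearts.

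In the pooled fit the calls among macrophage genes were all lower in trial 2. Of 12 myeloid genes 11 were below 0, the median was -0.35 and 5 were called, all lower, beside 9.04% of all genes. Lyz2, the lysozyme of macrophages and neutrophils, was 1.87 to 2.08 in trial 1 and 1.15 to 1.63 in trial 2 (-0.62 ± 0.06, limma adjusted p = 0.00420). Cd14, a co-receptor for bacterial lipopolysaccharide, was -0.05 to 0.10 and -0.47 to -0.13 (-0.36 ± 0.06, adjusted p = 0.0136). Fcer1g and Tyrobp, signalling adaptors of myeloid receptors, and Mrc1, the mannose receptor of tissue macrophages, differed by -0.35, -0.37 and -0.28, again with no overlap between the trials. The list also holds neutrophil genes, of which Csf3r and S100a8 were chosen after their values were seen. Csf3r, the receptor for granulocyte colony-stimulating factor, was called higher in PBS hearts of trial 2, at -3.30 and -3.54 beside -4.61 and -5.01 in trial 1 (1.39 ± 0.15, limma adjusted p = 0.0295, with 1 of the 2 trial 1 arrays well above background), where 1.68% of all genes were called higher. In meth hearts it was not well above background in trial 2 and no call was made (limma adjusted p = 0.0609). The neutrophil gene S100a8 was at -0.32 to 0.75 in PBS hearts of both trials, 0.03 to 0.16 in trial 1 meth hearts and -2.05 and -1.06 in trial 2 meth hearts, with no call.

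Among other immune lists, H2-Aa, a class II antigen-presenting chain, was called lower (-0.43 ± 0.11, limma adjusted p = 0.0455), and the median of the 7 class II genes was -0.25. Klrd1, a natural killer cell receptor, was 1 of 11 T and natural killer cell genes and was called lower (-0.71 ± 0.16, adjusted p = 0.0307). The cytokine Tnf was 1 of 15 acute inflammation genes and was called lower at -0.57 ± 0.11. Each of these lists had 1 call, beside 9.04% of all genes called lower, so nothing is read from their counts. The call of H2-Aa was lost in 13 of 20 alternative fits, that of Klrd1 in 12 of 20 and that of Tnf in 6 of 19. In no immune list was a gene called higher in the pooled fit. No B cell gene was called, and Cd79a had the lowest unadjusted p in that list (0.0525).

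Titin, a heart muscle gene, gave the largest called rise among the bright named genes. Ttn (chr2:76703980-76982557), the giant spring protein of the sarcomere, read 6.52 and 6.23 in meth and 6.53 and 6.59 in PBS hearts of trial 1, and 7.12 and 7.22 in meth and 7.40 and 7.47 in PBS hearts of trial 2. Every trial 2 heart was above every trial 1 heart, and the difference was 0.84 ± 0.07 (limma adjusted p = 0.00319). All 8 titin probes were called higher, at 0.28 to 1.06. Titin was chosen after the values were seen, as the largest called rise among genes brighter than the 75th percentile in both trials. Tnnc1, the calcium sensor of the thin filament, was 6.23 to 6.45 in trial 1 and 6.77 to 7.0 in trial 2 (0.49 ± 0.07, adjusted p = 0.0115). Of the 12 cardiomyocyte markers Tnnc1 was called higher and Ckm, muscle creatine kinase, lower (-0.20 ± 0.05, adjusted p = 0.0413). These 2 calls stand beside 14.9% of all genes called, so nothing is read from their count. The call of Ckm was lost in 14 of 20 alternative fits and that of Tnnc1 in 1.

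All 9 genes of the cardiac stress list lay above 0 with a median of 0.28 and none called by limma, the lowest unadjusted p being that of Nppb (0.00793). Nppb, which encodes B-type natriuretic peptide, was 4.48 to 5.12 in trial 1 and 5.02 to 5.90 in trial 2 (0.74 ± 0.20, limma adjusted p = 0.0507). Myh7, the slow myosin heavy chain of the fetal heart, read 5.56 and 4.57 in trial 1 and 8.41 and 6.84 in trial 2 meth hearts, and 4.73 and 4.55 in trial 1 and 5.49 and 5.26 in trial 2 PBS hearts. The 2 meth hearts of trial 2 held its highest values but lay far from each other, and the pooled difference of 1.65 ± 0.49 did not pass (adjusted p = 0.0596). Of 22 collagen and matrix genes 0 were called by limma, 3 had an unadjusted p under 0.05, and the median was 0.13, with the lowest p for Col4a2 (0.0114, adjusted 0.0606). The mean level of this list was 2.72 on male meth trial 2 replicate 1 and 1.85 to 2.02 on the other arrays. Over the alternatives its median ranged from -0.08 to 0.25. The same array was highest for the cardiac stress list, at a mean of 5.39 beside 4.21 to 4.76 on the others. Of 7 atrial genes 0 were called and 0 had an unadjusted p under 0.05, and all 7 lay above 0 in PBS hearts and below 0 in meth hearts.

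**Figure D4:**
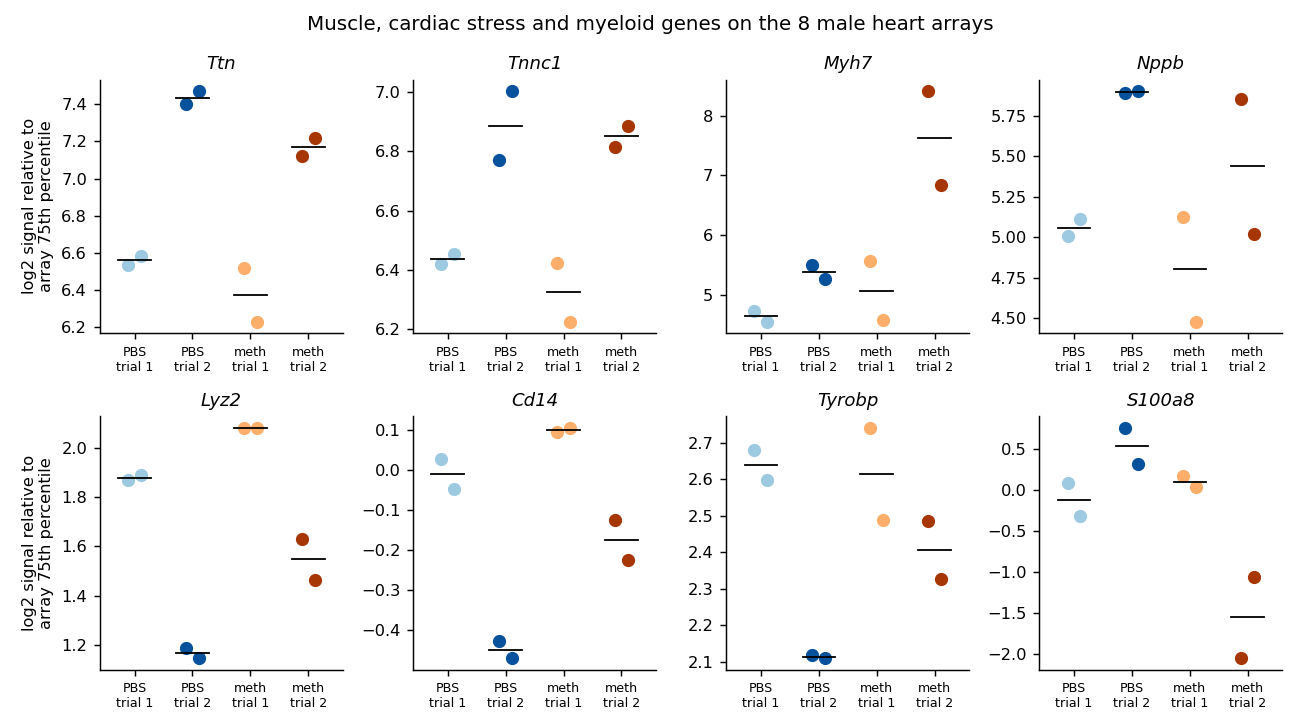
Log2 signal of 8 muscle, cardiac stress and myeloid genes relative to the 75th percentile of each array (y axis, a separate range for each gene) in the 4 groups of 2 male hearts (x axis). Each point is 1 heart, the bar is the mean of 2, and open points were not well above background. Ttn and Tnnc1 were higher and Lyz2, Cd14 and Tyrobp lower on every trial 2 array, whereas Myh7 and S100a8 set the trial 2 meth hearts apart.

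Vessel and stress lists gave few calls each, higher in some lists and lower in others, beside 5.83% of all genes called higher and 9.04% called lower. Nothing is read from the counts of the smooth muscle, endothelial, heat shock and endoplasmic reticulum stress lists. Acta2, smooth muscle actin, was higher by 0.36 ± 0.05 (limma adjusted p = 0.0116) and Actg2 by 0.24 ± 0.06. The Acta2 call rests on 1 of its 3 probes, the others lying on the other side of 0, the lowest at -0.08. Of 14 endothelial genes the receptor Tie1 (0.31 ± 0.07) and the junction protein Esam (0.28 ± 0.07) were called higher and Vwf, von Willebrand factor, lower (-0.48 ± 0.08). Of 17 heat shock genes Hspb1 (0.29 ± 0.06) and Hspa1b (0.45 ± 0.11) were called higher. The calls of Hspa1b and Actg2 were each lost in 15 of 20 alternative fits. That of Esam was lost in 12, that of Tie1 in 10 and that of Hspb1 in 9. In the endoplasmic reticulum stress list the chaperone Pdia4 was higher by 0.45 ± 0.08 and Trib3 lower by 0.41 ± 0.05. The antioxidant enzymes Sod1 (-0.32 ± 0.06), Gstm1 (-0.37 ± 0.09) and Gpx1 (-0.38 ± 0.08) were called lower, 3 of 16 beside 9.04% of all genes, and none was called higher. The call of Gstm1 was lost in 13 of 20 alternative fits, that of Gpx1 in 12 and that of Sod1 in 6. A second Gstm1 probe differed by -0.05, and Gpx1 overlapped between the trials.

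Genes of other tissues were checked for a difference in what was dissected. Of the 3 liver genes measured and 12 airway genes 0 were called by limma, with 1 unadjusted p under 0.05 in each. The airway list followed treatment in both trials, at a mean of 0.61 to 2.55 on the meth arrays and -4.67 to -4.35 on the PBS arrays, and its part in the trial differences was not tested. Of 9 skeletal muscle genes Mybpc2 was called higher (0.33 ± 0.09), and of 3 thymus genes Dntt lower (-0.60 ± 0.16). Over all genes 5.83% were called higher and 9.04% lower, so nothing is read from these counts. The call of Mybpc2 was lost in 15 of 20 alternative fits and that of Dntt in 14 of 19. The 5 red blood cell genes had no call and a median of 0.08 in PBS and -1.30 in meth hearts, where male meth trial 1 replicate 2 was the highest array with a mean of 3.17 beside 1.46 to 2.33 on the other 7. Of 4 measured genes known to vary between C57BL/6 substrains or colonies, none was called, and Wdfy1 came closest (-0.25 ± 0.07, limma adjusted p = 0.0535, on 1 of 3 probes, the others reaching 0.18).

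The largest differences lay mostly at dim probes. Of the 108 called genes with a mean level under -4, 36 differed by over 1 in size, against 5 of the 538 called genes with a mean level over 2. By the rule that named the 12 highest and 12 lowest called genes without overlap, the highest were Fbxw13, Slc2a2, Elapor2, Olfr1309, Olfr63, Olfr1065, Rln3, Cyp2c55, Lpar5, Chrm1, Olfr1143 and Fbxw22, at 2.06 down to 1.43. For 7 of these no trial 1 array was well above background, so only a bound held, from at least 1.44-fold for Fbxw22 to at least 2.72-fold for Rln3, which encodes a relaxin peptide. Fbxw13, an F-box protein of the ubiquitin system, read -5.94 to -5.60 in trial 1 and -3.93 to -3.52 in trial 2, which is at least 2.51-fold higher. Olfr1065, an olfactory receptor gene, was well above background on all 8 arrays, at -3.32 to -2.89 in trial 1 and -1.54 to -1.14 in trial 2 (1.69 ± 0.06, limma adjusted p = 0.000231).

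The lowest were Pramel39, Sox5, Dlk1, Gabbr2, Nectin4, Hbb-y, Nr1i3, Hormad1, Slc2a5, Srrm3, Kcnq3 and Zc3h3, at -2.74 to -1.42. Dlk1, an imprinted gene of preadipocytes, was -3.22 to -2.82 in trial 1 and -5.48 to -4.55 in trial 2, where 3 of 4 arrays were well above background (-2.01 ± 0.20, limma adjusted p = 0.00409). Nectin4, a cell adhesion protein of epithelia, was -3.43 to -3.08 and -5.20 to -4.78 (-1.75 ± 0.06 as measured, adjusted p = 0.000123). Of its trial 2 arrays 2 of 4 were well above background and neither meth array was, so in meth hearts only a bound held, at least 3.27-fold lower. Sox5, a transcription factor of cartilage and neurons, was well above background on all 4 trial 1 arrays and on none of trial 2, which is at least 2.10-fold lower. Only a bound held likewise for Pramel39, at least 1.82-fold lower, and for Slc2a5, at least 2.50-fold lower. Gabbr2 and Zc3h3 had a second probe with a difference of 0.09 and 0.40, so their calls rest on a single probe. The call of Hbb-y was lost in 12 of 20 alternative fits and that of Slc2a5 in 10 of 19.

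Some of the bright genes that differed most were chosen after their values were seen, from those above 0 in both trials. The splicing factor gene Srrm3 was 2.52 to 3.10 in trial 1 and 1.01 to 1.92 in trial 2 (-1.49 ± 0.18, limma adjusted p = 0.00636). Stra6, the cell surface receptor for retinol-binding protein, was lower by 1.40 ± 0.27, L3mbtl2 by 1.34 ± 0.25 on 1 of its 2 probes (the other at -0.02), and Pinx1, a telomerase inhibitor, by 1.1 ± 0.21, from 5.32 ± 0.41 to 4.21 ± 0.30 (SD, n = 4). A second Pinx1 probe, 3.28 below the 75th percentile on average, differed by 0.11 with no call. Ifi27l2a, an interferon-induced gene, was lower by 0.86 ± 0.18, and its second probe was not called (-0.68, limma adjusted p = 0.0553). It is not in the interferon-stimulated list, where 1 of 25 genes was called lower and 0 higher. The median of that list was -0.04, the same as for all genes. On the higher side after Ttn, examples were Rasl11b (0.74 ± 0.11), the Golgi proteins Trip11 (0.68 ± 0.07) and Golgb1 (0.60 ± 0.07), and Dag1, the dystroglycan that ties muscle fibres to their matrix (0.53 ± 0.07), with Hmg20b (0.62), Tubb2a (0.58) and Pif1 (0.57) between them in size. Both Dag1 probes were called, but 2 of 4 for Trip11 and 2 of 5 for Golgb1.

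The differences varied with the length of a gene. Over genes grouped by their span in the genome, the median difference went from -0.08 for 1838 genes under 5 kb to 0.02 for 1713 genes over 100 kb, and the share called higher from 5.01% to 9.05% while the share called lower went from 11% to 6.36%. Among female hearts of slide 4 against those of slides 1 and 2 the medians ran the other way, from 0.06 to -0.03. The part of RNA length or quality in the trial difference was not tested.

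The female arrays gave a view of sets of arrays with no male on them. The titles place all 7 female hearts in trial 1, but another label places female meth hearts 3 and 4 and female PBS heart 3 in trial 2, and these 3 lay on slide 4, scanned in a session of their own. Against the 4 female arrays of slides 1 and 2, 8021 of 27864 probes were called (28.8%), and 868 without female PBS replicate 3. The slide 4 arrays stood apart in their spike-ins, at a mean log2 signal of 7.67 to 8.09 beside 9.85 to 9.98 on the other female arrays, and its part in the female differences was not tested. Of the 24 genes named by the size rule above 23 had the same sign in the females as between the male trials, with Hbb-y the exception, and of the 72 called genes over 1 in size 65 did, 31 of them called. Over the 1989 called genes measured in both the share was 66.9%, and over all 13344 genes 57.3%. Female probes were tested where 3 or more of the 7 arrays were well above background, so the slide 4 arrays alone could pass a probe. Those arrays had 67.6% to 71.4% of probes well above background, beside 62.1% to 65.2% on the other female arrays. For genes dim on slides 1 and 2 this filter favours the same sign, so no conclusion is drawn from these counts. The female contrast shares slides 1 and 2 with the male one but no arrays. Its titles do not place its mice in another cohort. The paper likewise reports a single trial of this length in females and states that its repeat was run on males alone. By that account the female calls lie within a single trial, across slides and scan sessions. Their share of 28.8% stands beside 15.5% of probes between the male trials, from unlike fits and filters. What gave the female calls was not tested.

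**Figure D5:**
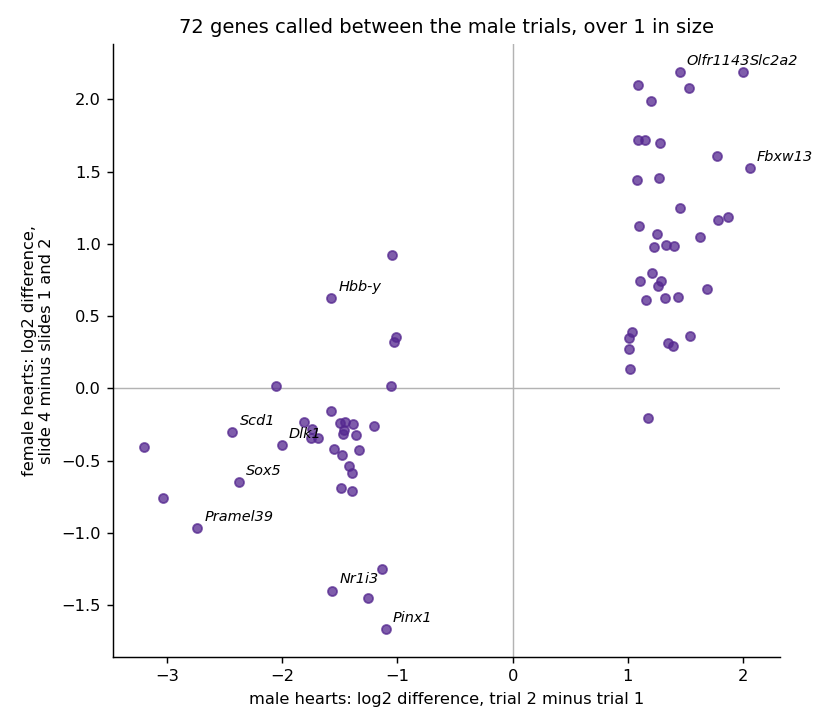
Log2 difference between the male trials (x axis) and between female hearts of slide 4 and of slides 1 and 2 (y axis) for the 72 genes called between the male trials with a difference over 1 in size, each point a gene. Of these, 65 had the same sign on both axes, and Hbb-y was among the 7 that did not. The filter on female probes favours the same sign for genes dim on slides 1 and 2.

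The gene lists are given for the females as a description, with no test between the male and female contrasts. In the females the median was 0.19 for clock repressors and outputs, -0.22 for the activator phase, -0.10 for white fat with 11 of 15 below 0, and 0.09 for myeloid genes. Nr1d1, lower in the male hearts of trial 2, was higher in the females of slide 4 (0.63, limma adjusted p = 0.0101). Ttn differed by -0.24 and Lyz2 by -0.15 there, neither called. The respiratory chain list lay below 0 in both, with a female median of -0.31 and 25 of 31 genes below 0. Between slides 1 and 2 the medians of the white fat and respiratory chain lists were 0.05 and -0.01.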

How the data were processed

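One heart RNA sample per mouse was hybridised to an Agilent mouse 4x44K array in a single colour. The authors deposited, per array, the intensity of each spot with its local background, together with other columns of Feature Extraction flags, in which the authors' scanner software marked spots as well above background, saturated or outlying. The version is 9.1 in the submitters' processing notes and 10.5.1.1 in the file headers. A deposited table of log2 values by the authors held the same signals with a constant added per array and served as an alternative.

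Here log2 of the processed intensity was shifted by the 75th percentile of each array over non-control probes, and spots of a probe were averaged. Testing took the probes flagged as above background on 4 or more of 8 male arrays and used limma 3.58.1 (R 4.3.3, lmFit and eBayes), with trial and treatment as terms. A fit with 4 groups gave the trial difference within PBS and meth hearts and the difference between them. The Benjamini-Hochberg adjustment ran over 26105 probes. A gene was read by its tested probe of highest mean signal. Symbols came from RefSeq (GRCm38.p6) through transcript accessions, which named 26918 of 41174 probes. Where no array of a group was well above background, only a bound of the fold is given, against the higher of each array's lowest signal among probes well above background and the dim probe's own. Named genes were the 12 highest and 12 lowest called genes whose trials did not overlap, the clock and substrain lists, and up to 3 called genes per direction of every other list or else that of lowest p. The members and lists were chosen with earlier results of these data known. The number of arrays limits the precision. Scripts were tested on simulated data. Alternatives covered background correction, scaling, filter, arrays in the fit, blocks and tests. Same-numbered arrays did not deviate together (correlations of -0.09 to 0.08), so the numbers were not taken as pairs. Figures used Python 3.11.15 and matplotlib 3.10.9. Results of a few list members are not reported here.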

Additional observations from a re-analysis of the deposited data

Results flagged for a closer look

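The trial difference of Ciart in meth hearts exceeded that in PBS hearts by 2.59 on the log2 scale, and that of Dbp by 1.62, each past the threshold in the test of this difference itself (limma adjusted p = 0.0490 for both). The meth minus PBS difference of Ciart was 1.88 in trial 1 and 4.47 in trial 2, and that of Dbp was 0.76 and 2.38. The trial 2 PBS value of Ciart was not well above background, so the size for Ciart is only that of the measured signal.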

How the results depend on the processing

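The count of 4045 probes between the male trials was 1153 without the filter on dim probes and 1623 with all 15 arrays in the fit. It was 2557 with the replicate number as a block, 2481 without treatment as a term and 9327 with slide as a random block. With an array left out it was 1091 to 2766. A t-test with same-numbered arrays of the trials as pairs gave 31, and an unpaired t-test gave 1975. In PBS hearts the count of 918 became 21 without the filter, 165 with all 15 arrays, 42 with the replicate block and 1 to 202 with an array left out, the lowest without male PBS trial 2 replicate 2 and next, at 5, without male PBS trial 1 replicate 1. In meth hearts 278 became 10 without the filter, 601 with probes well above background on all 8 arrays, 116 with all 15 arrays, 32 with the replicate block and 10 to 241 with an array left out. The 2 calls of the trial by treatment difference became 0 without the filter, with all 15 arrays and with the replicate block, and 0 to 60 with an array left out. The female count of 8021 was 868 to 6058 with an array left out. The causes were not tested. Slides 1 and 2 gave 0 calls in every alternative run. Of 95 named genes all kept direction and side of the threshold with the authors' values, and 62 did without the filter. Besides the losses given above, the pooled call of Eci1 was lost in 11 of 20 alternative fits and that of Slc27a2 in 11 of 19. Those of Cry1, Fdft1 and Pparg were each lost in 10 of 20. Uncalled genes near 0 changed sign: Bhlhe41 (0.0326) and Entpd4 (0.0202) with normexp, Entpd4 (0.0323), Gpi1 (0.0040) and Fgfbp3 (-0.0015) with quantile scaling, and Arntl (-0.0447) and Fgfbp3 (-0.0104) with the median shift. With an array left out Arntl ranged from -0.20 to 0.28, Bhlhe41 from -0.11 to 0.12, Per1 from -0.189 to 0.0497, Per3 from -0.296 to 0.0306, Entpd4 from -0.0533 to 0.0158 and Fgfbp3 from -0.0949 to 0.331. The median of the white fat list stayed between -1.02 and -0.55, whereas that of brown fat reached 0.01.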
